A study of Mus musculus with 50 samples.

Results

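CD25+ Foxp3- thymic progenitors of regulatory T cells (Treg cells), called P1, were compared between mice of day 49 (D49) and day 12 (D12) of life. They were chosen by the population and age in the library titles: 3 D49 P1 and 3 D12 P1 libraries, 6 of the 50 RNA-seq libraries of the series. Both groups were male mice of the strain B6.Cg-Foxp3tm1Kuch/J, in which a green fluorescent protein reports Foxp3, with the genotype label WT; their labels name no treatment. CD4+ CD8- CD25+ cells without the reporter were sorted in successive rounds from the thymus, 500 to 1000 cells a library, so only these surface markers and the reporter define P1. P1 libraries of day 5 (D5) and the CD25- Foxp3+ progenitors (P2) of D49 and D12, 3 libraries a group and the same strain and sex, are given beside the comparison for context. Nothing in the labels ties the replicate libraries to different animals, so the error behind each p-value is the variation among libraries and may be technical only.

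In the thymus, CD4 T cells whose receptor binds self antigen strongly can turn on CD25, the alpha chain of the interleukin 2 receptor. Cytokine signals through this receptor and STAT5 then lead part of them to express Foxp3, the transcription factor of Treg cells; another route passes through cells with Foxp3 and little CD25. Treg cells made soon after birth differ from those made in adults, and the series asks in its title how the early ones come to seed visceral fat.

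The libraries held 4155289 to 5569752 counts at D49 and 3560989 to 5480914 at D12. Levels are in CPM, a gene's counts relative to its library's total, scaled with the trimmed mean of M values (TMM), and fold changes are log2 D49 over D12 with their standard error (SE). As the sort requires, the CD25 gene Il2ra stood at 133, 104 and 123 CPM at D49, against 144, 166 and 132 CPM at D12 (adjusted p = 0.290 by the edgeR quasi-likelihood test, as for all adjusted p below). Foxp3 stood at 18.9, 11.6 and 11.9 CPM at D49, against 10.9, 4.85 and 10.6 CPM at D12 (adjusted p = 0.0835), and at 308 to 546 CPM in D49 P2. Foxp3 was thus low but not at 0 in each of the 6 P1 libraries. The D12 libraries stood apart in make-up. Genes too low to test held 0.304% to 0.424% of the counts at D49 and 0.880% to 1.72% at D12, against 0.345% to 0.389% in D5 P1. At an equal depth of 2817171 counts, 17150 to 19178 genes were detected at D49 and 25160 to 30115 at D12. Ribosomal protein genes took 5.4% to 5.68% of the counts at D49 and 4.12% to 4.39% at D12. D49 P2 replicates 2 and 3 shared the high share of low genes (1.58% and 2.15%), and D49 P2 replicate 1 did not (0.450%). Within P1 this property and the age of 12 days cannot be told apart. Results are therefore weighed on genes with a mean of 20 CPM or more, with the D5 level beside them. Values from a fit that holds the share of low genes as a covariate over 18 thymus libraries are given too. That fit keeps a coefficient for each group, so its slope comes from the spread of this share within groups. This spread was widest in D49 P2 (0.450% to 2.15%) and next in D12 P1 (0.880% to 1.72%), and the slope is applied to P1. Passing or losing a call with the covariate thus cannot part age from this property within P1.

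At D49, 3487 of 14696 genes tested passed an adjusted p of 0.05 (23.7%), of which 1504 were higher (10.2%) and 1983 lower (13.5%). Values of the groups did not overlap in 6352 genes tested (43.2%) and in 3473 of those of 20 CPM or more (47.5%). At 20 CPM or more, 2022 of 7314 genes passed (27.6%), 1141 higher (15.6%) and 881 lower (12.0%). Below 20 CPM, 1465 genes passed and 24.8% of them were higher at D49. With the share of low genes as a covariate, 777 of all genes and 581 of those at 20 CPM or more passed. Leaving out 1 library left 1303 (without D49 replicate 1) to 1486 (without D12 replicate 2) genes at 20 CPM or more, with 1339 without D49 replicate 3. Over all genes it left 1944 without D49 replicate 1, 2002 without D49 replicate 3, 2106 without D49 replicate 2, 2213 without D12 replicate 2 and 2273 without D12 replicate 3. The D5 level placed the called genes of 20 CPM or more, as a description. Of the 881 genes lower at D49, the D5 level lay between the ages in 273 (31%). It lay near D12 in 247, beyond D12 in 231, near D49 in 94 and beyond D49 in 36. Of the 1141 higher genes, the D5 level lay between the ages in 431 (37.8%). It lay near D49 in 386, beyond D49 in 98, near D12 in 154 and beyond D12 in 72. Beyond an age means on its far side from the other. In the 386 higher and 94 lower genes with D5 near D49, D12 was the age that stood apart.

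**Figure D1:**
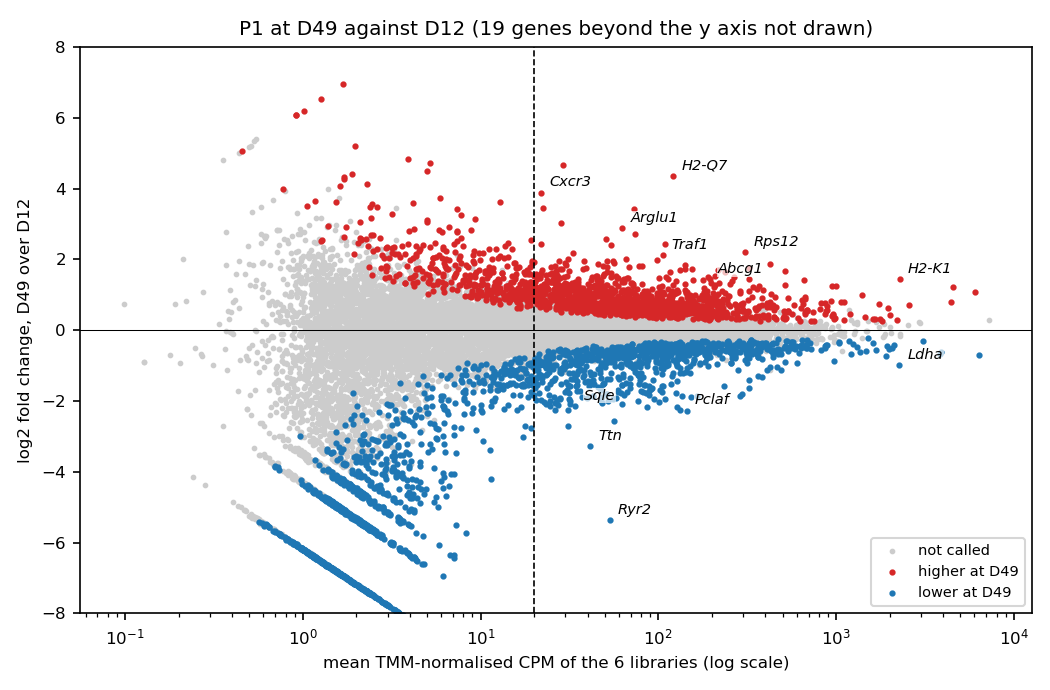
Log2 fold change of each tested gene in P1, D49 over D12, against its mean level in the 6 libraries on a log axis. Red genes were higher and blue genes lower at D49 (adjusted p below 0.05), the dashed line marks 20 CPM, and 19 genes beyond the y axis are not drawn. The low genes to the left of the line are mostly lower at D49.

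Class I genes of the major histocompatibility complex, which present peptides to T cells, rose at D49 and included the largest rises named here (H2-Q6 and H2-Q7). Of 19 class I and peptide loading genes tested, 15 rose and 3 were not called. The proteasome gene Psmb8 fell (not without D12 replicate 3 or D49 replicate 3). The median log2 fold change was 0.63, against -0.05 over all genes tested, of which 10.2% were higher and 13.5% lower. H2-Q7 encodes a Qa-2 molecule, a nonclassical class I protein known as a marker of mature T cells, and held 210.4, 263 and 219 CPM at D49, against 12.8, 9.96 and 10.4 CPM at D12. The log2 fold change was 4.37 ± 0.29 SE (adjusted p = 1.23e-08), and D5 libraries held only 10.2, 8.44 and 4.98 CPM. Each D49 library was above each D12 library, as a rule that named this gene required. Its neighbour H2-Q6 rose likewise, with 39.4, 60.4 and 68.8 CPM at D49, against 2.72, 1.62 and 2.08 CPM at D12 (log2 fold change 4.67 ± 0.43 SE, adjusted p = 8.83e-07). H2-Q6 (chr17:35424850-35430055, mm10) and H2-Q7 (chr17:35439155-35443773) are near-identical copies, so their reads can be shared and the split between them is uncertain.

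The classical class I gene H2-K1 was expressed at a high level at both ages, 3090, 3722 and 3181 CPM at D49, against 1291, 1224 and 1170 CPM at D12, and rose by 1.44 ± 0.17 SE on the log2 scale (adjusted p = 1.71e-05). H2-D1, the other classical gene, rose by only 0.3 ± 0.09 (adjusted p = 0.0288), and this call was lost without D12 replicate 2 or D49 replicate 2 and with other size factors. Tap2, which pumps peptides to class I molecules, held 311, 342 and 292 CPM at D49, against 144, 101 and 132 CPM at D12 (log2 fold change 1.32 ± 0.18 SE, adjusted p = 5.70e-05). B2m, the shared light chain, rose by 0.63, the Qa-1 gene H2-T23 by 1.1, H2-T22 by 0.65, and Nlrc5, the transactivator of class I genes, by 0.68. With the share of low genes as a covariate, 7 of the 15 rises passed: H2-Q7 (3.86), H2-Q6 (4.42), H2-K1 (1.02), Tap2 (0.86), H2-T23 (0.63), B2m (0.52) and H2-T22 (0.49). Nlrc5 (0.51, adjusted p = 0.0514) then missed the threshold. D5 held 1509, 1286 and 1438 CPM of H2-K1 and 225, 220.1 and 224 CPM of Tap2, so H2-K1 was close to D12 and Tap2 lay between the ages.

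The promoters of the class I genes with the smallest adjusted p are shown because they share 2 short elements. These are the 300 bases from 250 before to 50 after the start (RefSeq, GRCm38.p6, 5′ to 3′); capitals mark the NF-kB site of class I enhancer A (upstream) and TTTCACTTC, an interferon-response element beside it. Both were searched on both strands after reading these sequences.
H2-Q7 (chr17:35438905-35439204, plus strand): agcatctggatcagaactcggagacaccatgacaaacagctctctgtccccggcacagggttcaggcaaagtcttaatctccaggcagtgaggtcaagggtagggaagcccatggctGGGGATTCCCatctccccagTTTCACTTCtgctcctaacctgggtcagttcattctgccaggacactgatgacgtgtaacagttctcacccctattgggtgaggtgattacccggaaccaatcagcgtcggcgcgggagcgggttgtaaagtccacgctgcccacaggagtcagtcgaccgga
H2-Q6 (chr17:35424600-35424899, plus strand): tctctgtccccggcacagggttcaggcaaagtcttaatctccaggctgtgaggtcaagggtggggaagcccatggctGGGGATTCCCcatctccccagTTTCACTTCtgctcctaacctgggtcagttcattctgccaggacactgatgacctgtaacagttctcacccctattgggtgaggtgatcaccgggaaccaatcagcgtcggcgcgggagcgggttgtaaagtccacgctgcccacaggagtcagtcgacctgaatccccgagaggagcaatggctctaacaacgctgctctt
H2-K1 (chr17:34000298-34000597, minus strand): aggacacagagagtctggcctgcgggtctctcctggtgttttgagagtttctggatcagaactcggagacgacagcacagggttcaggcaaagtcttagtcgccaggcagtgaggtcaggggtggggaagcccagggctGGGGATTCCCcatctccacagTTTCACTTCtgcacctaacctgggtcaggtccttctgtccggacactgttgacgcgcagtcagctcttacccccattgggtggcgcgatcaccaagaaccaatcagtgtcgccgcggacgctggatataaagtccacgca
H2-Q6 and H2-Q7 share 254 of 261 aligned bases (97.3%). The enhancer A site was in 4 of 16 class I promoters of the table (25%; H2-K1, H2-D1, H2-Q6 and H2-Q7) and in 28 of 27025 promoters overall (0.104%). TTTCACTTC was in 7 of the 16 (43.8%), among them H2-M3 and H2-Q4, and in 141 overall (0.522%). The promoters shown here are counted in both shares of the 16, so these shares were partly fixed in advance by the choice of words. H2-D1 and H2-Q7 hold both elements, and their rises were 0.3 and 4.37 on the log2 scale. These matches describe the sequence; binding was not measured.

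**Figure D2:**
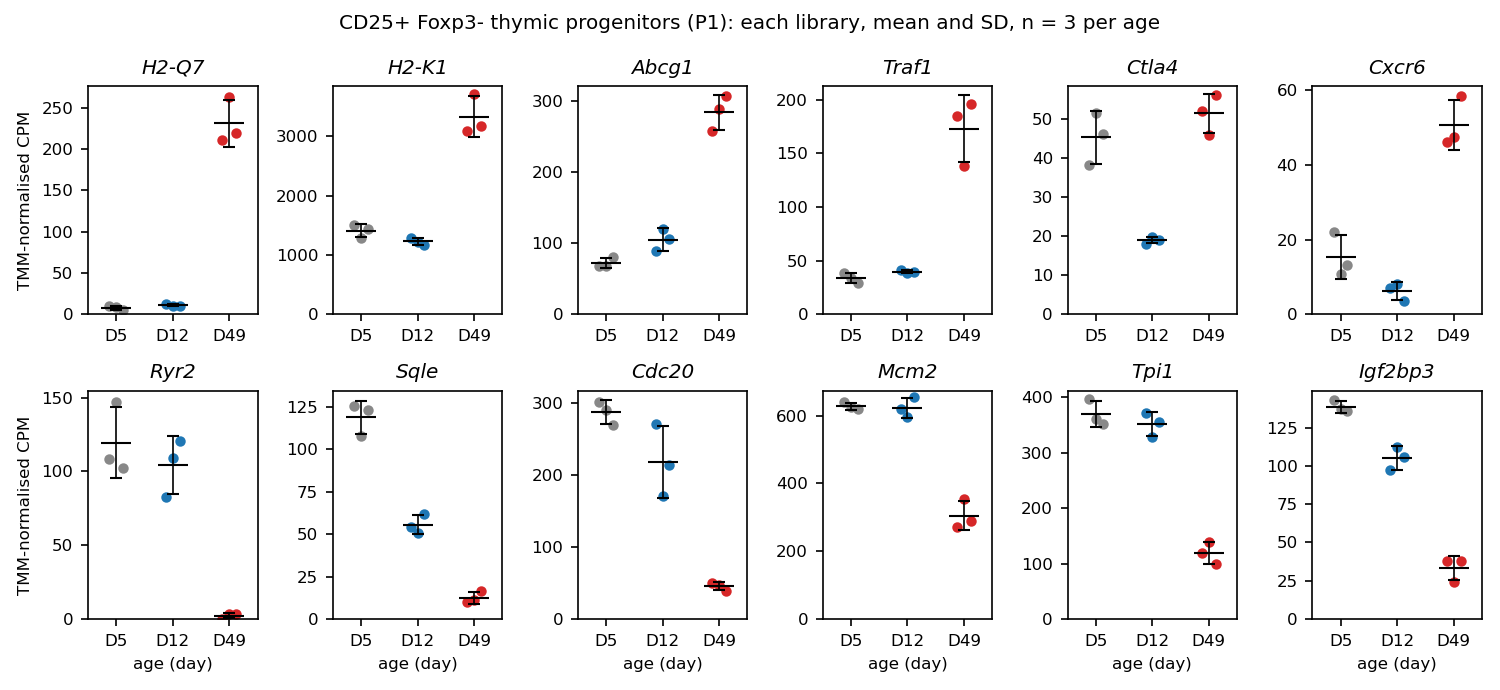
CPM of 12 genes in each P1 library at D5, D12 and D49 (points), with the mean and SD of 3 libraries per age. The upper row holds genes higher and the lower row genes lower at D49 than at D12; H2-Q7 is near the axis until D49, and Ryr2 falls to under 4 CPM at D49.

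The called genes of sterol efflux were higher at D49, and those of cholesterol synthesis and uptake lower. Of 10 genes of sterol efflux and targets of LXR, the nuclear receptor that senses oxidised sterols, 5 rose (none of the other 5 was called). Their median was 0.48, and 10.2% of all genes tested were higher. The cholesterol exporter gene Abcg1 held 257, 288 and 306 CPM at D49, against 88.7, 119.8 and 106 CPM at D12 (log2 fold change 1.44 ± 0.12 SE, adjusted p = 3.56e-07), with D5 lower still at 68.2, 67.9 and 80.7 CPM. Its relative Abca1 held 39.6, 44.6 and 48.1 CPM at D49, against 11.4, 13.2 and 9.92 CPM at D12 (1.94 ± 0.34 SE, adjusted p = 0.000690) and 2.81, 0.375 and 0.664 CPM at D5, so both exporters stood in the order D5, D12, D49. Mylip, a ubiquitin ligase induced by LXR, held 99.3, 85 and 84.7 CPM at D49, against 43.8, 51.4 and 44.5 CPM at D12 (0.95, adjusted p = 0.000810). These 3 passed with the covariate (1.56, 1.83 and 0.93). Srebf1, a factor of lipid synthesis (0.55), and Soat1, which esterifies cholesterol (0.64), lost the call with it. Srebf1 also lost the call without D49 replicate 2, and Soat1 without D12 replicate 1, D12 replicate 2, D49 replicate 1 or D49 replicate 3. Srebf1 had a mean of 226.8 CPM at D5 and at D49, against 154.7 CPM at D12.

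Of 24 genes of cholesterol synthesis and uptake, 11 fell and 13 were not called, with a median of -0.69. The share lower over all genes tested was 13.5%. Sqle, squalene epoxidase, held 9.79, 11.3 and 16.3 CPM at D49, against 54.1, 50.9 and 61.8 CPM at D12 (log2 fold change -2.14 ± 0.26 SE, adjusted p = 2.08e-05) and 126, 108 and 123 CPM at D5. Hmgcs1, which makes HMG-CoA, held 41.3, 56.9 and 55.5 CPM at D49, against 118, 101 and 99.9 CPM at D12 (-1.05 ± 0.14 SE, adjusted p = 5.08e-05), and the demethylase gene Cyp51 held 40.1, 48.6 and 46.7 CPM at D49, against 102, 106 and 120.2 CPM at D12 (-1.27 ± 0.21 SE, adjusted p = 0.000400). For these 3 genes each D5 library was above each D12 library and each D12 library above each D49 library. D49 and D12 did not overlap, in either direction, in 47.5% of all genes of 20 CPM or more. The count of 11 was 7 with the covariate (5 of them among the 11), 5 without D12 replicate 1 or D49 replicate 3, 6 without D49 replicate 2 and 7 without D49 replicate 1; Sqle, Hmgcs1 and Cyp51 passed in each.

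Of 24 genes of TNF receptors and NF-kB, 6 rose, 1 fell and 17 were not called (median 0.14). All 24 were at 20 CPM or more, and the called share was near the 27.6% over all genes of that level. Traf1, a signalling adaptor induced by NF-kB, held 185, 138 and 196 CPM at D49, against 41.5, 38.2 and 39.5 CPM at D12 (log2 fold change 2.12 ± 0.18 SE, adjusted p = 3.56e-07), with no overlap and 38.5, 33.8 and 28.7 CPM at D5. Nfkbiz, an atypical IkB protein, held 62.3, 57.3 and 80.9 CPM at D49, against 27.7, 34.5 and 27.9 CPM at D12 (1.16 ± 0.16 SE, adjusted p = 0.000111), and the TNF receptor gene Tnfrsf1a held 64.8, 46.5 and 76.4 CPM at D49, against 30.1, 22.4 and 24.5 CPM at D12 (1.28 ± 0.21 SE, adjusted p = 0.000481). The cytokine gene Ltb rose by 0.52 ± 0.08 SE (604, 655 and 632 CPM at D49, against 448, 421 and 453 CPM at D12; adjusted p = 0.000335). The subunit gene Relb rose by 0.87 (adjusted p = 0.0137; not without D49 replicate 2), while Nfkb1, Nfkb2, Rel and Rela were not called. Tnfrsf18, encoding GITR, stood at 401, 484 and 393 CPM at D49, against 459, 489.9 and 533 CPM at D12, and was not called, and Tnfrsf4, encoding OX40, fell by 0.35 (adjusted p = 0.0352), a call that 5 of the 6 single-library omissions lost. With the covariate Traf1 (1.85), Nfkbiz (1.18), Tnfrsf1a (0.91) and Ltb (0.49) passed, and Relb did not (adjusted p = 0.446).

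Among 23 Treg signature genes, 6 rose and 3 fell, where 23.7% of all genes tested were called. Ctla4, an inhibitory receptor of Treg cells, held 52, 46 and 56.2 CPM at D49, against 18.1, 19.7 and 18.9 CPM at D12 (log2 fold change 1.45 ± 0.18 SE, adjusted p = 2.64e-05); D5 held 38.1, 51.6 and 46.2 CPM, so here D12 was the low age. Nrp1, a surface protein of thymic Treg cells, held 60.2, 38 and 44.3 CPM at D49, against 19.2, 9.16 and 8.77 CPM at D12 (1.91 ± 0.27 SE, adjusted p = 9.97e-05), and Nt5e, encoding the ecto-enzyme CD73, held 32.2, 26.9 and 39.8 CPM at D49, against 5.25, 14 and 13.6 CPM at D12 (1.62 ± 0.29 SE, adjusted p = 0.000779). Gpr83, a receptor found in Treg cells, fell to 89.8, 66.8 and 77.3 CPM at D49, against 148, 149.7 and 148 CPM at D12 (-0.93 ± 0.14 SE, adjusted p = 0.000152). With the covariate 5 genes of the list were higher, 4 of them among the 6, and 2 of the 3 falls passed. The 3 falls were 1 when D12 replicate 2, D12 replicate 3, D49 replicate 1 or D49 replicate 3 was left out. Ikzf2, encoding the transcription factor Helios, held 406, 409.7 and 512 CPM at D49, against 199, 239 and 183 CPM at D12 (1.1 ± 0.23 SE, adjusted p = 0.00263), and had an adjusted p of 0.112 with the covariate. The Foxp3+ Treg marker sum was 627 to 762 CPM at D49 and 460.5 to 501 CPM at D12. Its 8 markers are all members of the Treg signature list, Ikzf2 among them, so the sum is not separate from that list. Of the 8 markers 6 were tested, with Ikzf2 higher and Gpr83 lower. The part of Foxp3+ Treg cells in the Treg signature was not tested. In this bulk measure, fewer cells of a type and less RNA per cell cannot be told apart.

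Genes of T cell receptor signal strength gave no common direction. Of 21 tested, 5 rose and 3 fell (median 0.26), where 23.7% of all genes tested were called. The immediate target Egr1 fell to 198, 209 and 194 CPM at D49, against 372, 276 and 274 CPM at D12 (-0.62 ± 0.13 SE, adjusted p = 0.00320). Cd5, a surface sensor of signal strength, rose to 1057, 1169 and 1015 CPM at D49, against 812, 814 and 834 CPM at D12 (0.4 ± 0.10 SE, adjusted p = 0.00980). D5 held 250, 259 and 268 CPM of Egr1, between the other ages. It held 1067, 1072 and 1094 CPM of Cd5, so for Cd5 D12 was the low age. The 5 rises were 3 without D12 replicate 1, D12 replicate 3 or D49 replicate 2, and the 3 falls were 1 without D12 replicate 1, D12 replicate 3, D49 replicate 1 or D49 replicate 3. With the covariate 0 of 21 passed by the edgeR test, and 4 had an unadjusted p under 0.05. Of 21 genes of the interleukin 2 receptor and STAT5, 4 rose, a called share below the 23.7% over all genes tested. The survival gene Mcl1 rose by 0.9 ± 0.15 SE (107 ± 9.14 CPM at D49 and 57.6 ± 2.9 CPM at D12, SD, n = 3 each, adjusted p = 0.000402). The others were the STAT5 target Cish (0.89), Il7r (0.7) and Bcl2 (0.61). Mcl1 alone passed with the covariate (0.83, adjusted p = 0.00821). At D5 Cish held 240, 239.8 and 212 CPM, near its D49 mean of 242 CPM. Bcl2 held 330, 328 and 323 CPM at D5, near its D49 mean of 334 CPM. Il7r was lost without D12 replicate 2, and Bcl2 without D12 replicate 3, D49 replicate 1 or D49 replicate 3. The receptor chain genes Il2ra, Il2rb and Il2rg and the genes Stat5a and Stat5b were not called, with log2 fold changes of -0.3, 0.31, -0.31, 0.52 and -0.09. Of 15 genes of the Bcl2 family, which governs cell death, 3 rose and 1 fell, a called share near the 23.7% over all genes tested. The rises were 1 without D12 replicate 3, D49 replicate 1 or D49 replicate 3, and the fall, in Bcl2l14 (-1.63), was lost in each omission but that of D49 replicate 3. Of 14 immediate early and AP-1 genes only the stress gene Gadd45b was called, a share below the 23.7% over all genes tested. Gadd45b rose to 63.2, 94.9 and 60.2 CPM at D49, against 33.3, 38 and 35.1 CPM at D12 (adjusted p = 0.0192). This call was lost with the covariate and without D12 replicate 1, D12 replicate 3 or D49 replicate 2.

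Of 27 genes of thymocyte maturation and egress, 9 rose, 2 fell and 16 were not called, where 23.7% of all genes tested were called. H2-Q7 and H2-Q6, given above, are among the rises. The surface protein gene Cd52 fell to 1076, 1128 and 1026 CPM at D49, against 1776, 1628 and 1573 CPM at D12 (-0.62 ± 0.11 SE, adjusted p = 0.000668). S1pr1, the exit receptor of the thymus, its activator Klf2, and Ccr7 were not called, with log2 fold changes of -0.19, -0.43 and -0.19. The 9 rises were 5 with the covariate and 5 without D12 replicate 2, and the other fall, in the recombinase gene Rag1, rested on 0 CPM in each D49 library, against 0, 4.31 and 4.15 CPM at D12, and was lost in 5 of the 6 omissions.

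Of 33 genes of activated and memory T cells, 15 rose and 3 fell, with a median of 0.68. At 20 CPM or more, 9 of 17 rose with a median of 0.41, where 15.6% of all genes were higher. The chemokine receptor gene Cxcr6 held 46.2, 47.4 and 58.5 CPM at D49, against 7.06, 8.08 and 3.46 CPM at D12 (log2 fold change 3.03 ± 0.64 SE, adjusted p = 0.00289), with 22.1, 10.9 and 13.3 CPM at D5. Its relative Cxcr3, a receptor of type 1 T cells, held 28.2, 37 and 58.3 CPM at D49, against 6.7, 1.08 and 0 CPM at D12 (3.88 ± 0.88 SE, adjusted p = 0.00457), with 4.61, 0.938 and 1.66 CPM at D5. D12 replicate 1 held most of the Cxcr3 of its group. That the groups did not overlap was part of a rule that named Cxcr3, so it is no separate result. S100a11 (3.25), S100a6 (2.83), the integrin gene Itga4 (1.13) and S100a10 (0.68) rose too, each passing with the covariate. Itga4 held 63.6, 52.9 and 54.6 CPM at D5, near its D49 mean of 67.35 CPM, with a D12 mean of 30.6 CPM. Lgals1, a galectin, went the other way, with 132, 134 and 114 CPM at D49, against 276, 234 and 258 CPM at D12 (-1.01 ± 0.13 SE, adjusted p = 4.75e-05), as did Crip1, with 99.3, 105 and 97.7 CPM at D49, against 189.9, 193 and 222 CPM at D12 (-1.0 ± 0.13 SE, adjusted p = 4.04e-05). The chemokine receptor gene Ccr8 fell by 1.12 and lost the call with the covariate (adjusted p = 0.0895). Of 17 chemokine receptor genes tested, 2 rose (Cxcr6 and Cxcr3), 1 fell (Ccr8) and 14 were not called. This called share was below the 23.7% over all genes tested. The 15 rises were 7 with the covariate, 8 without D12 replicate 3 and 9 without D49 replicate 1 or D49 replicate 3. Markers of NK cells moved with this list, at a summed 23.8 to 27.3 CPM at D49 and 6.16 to 15.2 CPM at D12. Of the 9 NK markers 5 were tested, 1 of them, Klrb1c, was higher (not without D12 replicate 1, D12 replicate 3, D49 replicate 2 or D49 replicate 3), and Klra4 was at 0 in each of the 6 libraries. Innate-like T cell markers summed to 60.7 to 70.4 CPM at D49, 51.7 to 55.8 CPM at D12 and 93.7 to 102.7 CPM at D5. Their members did not share a direction: of 8 tested, 1 was higher and 2 were lower at D49, Cd163l1 among the lower. The part of NK and innate-like T cells in the rises of the activated and memory list was not tested.

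Of 16 cytokine genes tested, 4 rose, a called share near the 23.7% over all genes tested. Tnfsf8, encoding CD30 ligand, had 108, 98.6 and 108 CPM at D49, against 22.1, 34.7 and 21.5 CPM at D12 (log2 fold change 2.02 ± 0.26 SE, adjusted p = 4.34e-05; 1.76 with the covariate). Ltb is given above, Il4 held 0.692 to 3.27 CPM at D49 and 0 to 0.269 CPM at D12, and the opioid precursor gene Penk held 112, 63 and 69.3 CPM at D49, against 26.4, 24.8 and 28.4 CPM at D12 (adjusted p = 0.0434) and lost its call in each of the 6 omissions. The count of 4 was 2 with the covariate and 2 without D12 replicate 1, D12 replicate 2, D12 replicate 3, D49 replicate 1 or D49 replicate 2.

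**Figure D3:**
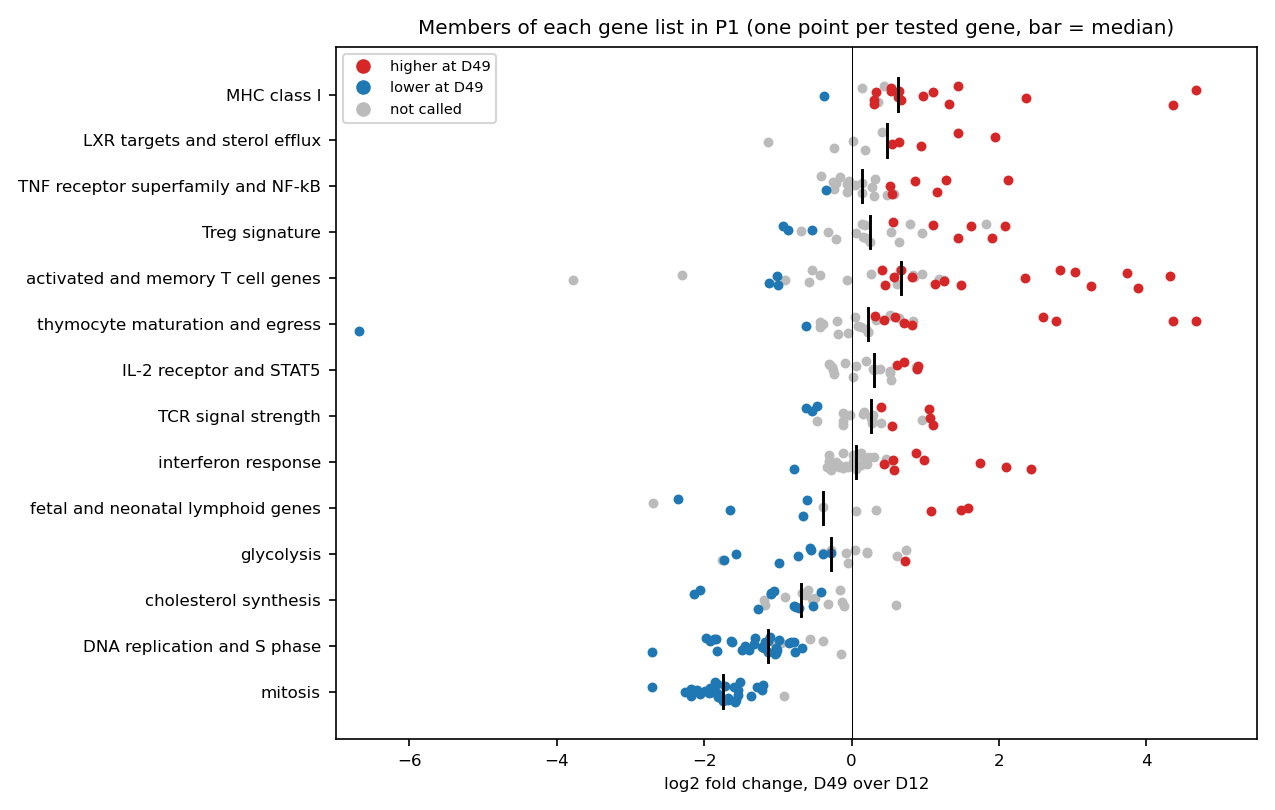
Log2 fold change, D49 over D12, of each tested member of 14 gene lists in P1, with red for higher, blue for lower and grey for not called, and a bar at the list's median. Mitosis and replication genes lie left of 0, with medians of -1.75 and -1.13, and the class I genes lie right of 0 except for Psmb8, with a median of 0.63.

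Most cell cycle genes fell. Of 34 genes of DNA replication and S phase, 29 fell and 5 were not called (median -1.13), and of 30 mitosis genes 29 fell and Foxm1 was not called (-0.92, adjusted p = 0.101; median -1.75). Mcm2, a subunit of the replicative helicase, held 272, 353 and 289.7 CPM at D49, against 618, 595 and 653 CPM at D12 (log2 fold change -1.03 ± 0.11 SE, adjusted p = 4.89e-06). Rrm2, of the enzyme that makes deoxynucleotides, held 126, 116 and 132 CPM at D49, against 443, 416 and 486 CPM at D12 (-1.85 ± 0.21 SE, adjusted p = 1.43e-05). Cyclin E1, encoded by Ccne1, which drives entry into S phase, held 33.6, 39.6 and 35.5 CPM at D49, against 96.7, 92.4 and 80.3 CPM at D12 (-1.31 ± 0.16 SE, adjusted p = 2.69e-05). Cdc6, which loads the helicase, fell as well, and so did Pclaf, a partner of PCNA that is outside the list. Pclaf held 40.6, 52.1 and 55.9 CPM at D49, against 238, 212 and 268 CPM at D12 (-2.27 ± 0.27 SE, adjusted p = 1.86e-05) and Cdc6 held 27.1, 31.9 and 25.8 CPM at D49, against 108, 95.6 and 95.3 CPM at D12 (-1.82 ± 0.24 SE, adjusted p = 5.80e-05). All 3 D49 libraries lay under all 3 D12 libraries for each of these 5 genes. The groups did not overlap, in either direction, in 47.5% of all genes of 20 CPM or more. For Pclaf this was part of the rule that named it. Among mitosis genes, Racgap1, of the division furrow, held 50.4, 64.9 and 78 CPM at D49, against 293, 216 and 213 CPM at D12 (-1.9 ± 0.22 SE, adjusted p = 1.14e-05), and Cdc20, which starts the separation of chromosomes, held 50.4, 47 and 39.4 CPM at D49, against 271, 171 and 214 CPM at D12 (-2.27 ± 0.40 SE, adjusted p = 0.000766). E2f8, a repressor of the E2F family, fell by 2.71 and lost the call with the covariate (adjusted p = 0.0824). With the covariate 20 of 34 and 15 of 30 passed, all lower, among them Mcm2 (-1.04), Rrm2 (-1.40), Ccne1 (-1.47), Pclaf (-1.83), Racgap1 (-1.66) and Cdc20 (-1.60). Among genes of 20 CPM or more that fell, the D5 level lay beyond D12, away from D49, in 17 of 27 replication and 24 of 27 mitosis genes, and near D12 in the other 10 and 3. Histone messages of the replication-dependent class were low; 4 of 14 tested fell, among them H1f5 (0.466, 1.65 and 0.692 CPM at D49, against 12.1, 9.96 and 7.15 CPM at D12), and 2 fell with the covariate. None of the 14 reached 20 CPM. Over all genes tested, 13.5% were lower at D49 and 23.7% were called in either direction.

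Promoters of 4 of these genes are shown for the elements they hold: E2F sites in S phase genes and the cell cycle homology region (CHR) of mitosis genes. Capitals mark matches to TTTCCCGC, TTTGGCGC, TTTCGCGC or TTTGCCGC for E2F, and TTTGAA for CHR, on either strand (matches may overlap; RefSeq, GRCm38.p6, 5′ to 3′).
Pclaf (chr9:65890073-65890372, plus strand): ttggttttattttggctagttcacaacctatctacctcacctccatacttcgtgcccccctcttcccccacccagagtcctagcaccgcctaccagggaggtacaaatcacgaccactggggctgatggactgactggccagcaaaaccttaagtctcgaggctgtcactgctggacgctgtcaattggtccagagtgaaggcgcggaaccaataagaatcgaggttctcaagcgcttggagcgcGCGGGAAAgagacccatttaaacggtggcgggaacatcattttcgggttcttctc
Mcm6 (chr1:128359656-128359955, minus strand): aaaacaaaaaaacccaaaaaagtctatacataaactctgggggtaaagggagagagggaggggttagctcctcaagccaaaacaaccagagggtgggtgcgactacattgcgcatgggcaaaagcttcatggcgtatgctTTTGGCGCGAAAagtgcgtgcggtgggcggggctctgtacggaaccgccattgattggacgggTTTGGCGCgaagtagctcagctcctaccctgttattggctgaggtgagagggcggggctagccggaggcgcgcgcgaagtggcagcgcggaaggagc
Cdc20 (chr4:118437294-118437593, minus strand): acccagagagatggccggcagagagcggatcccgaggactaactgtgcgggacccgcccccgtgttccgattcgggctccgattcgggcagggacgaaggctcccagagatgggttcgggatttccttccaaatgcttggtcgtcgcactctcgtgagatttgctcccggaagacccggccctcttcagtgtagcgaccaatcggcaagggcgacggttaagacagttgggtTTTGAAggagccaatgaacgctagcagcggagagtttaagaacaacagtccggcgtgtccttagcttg
Racgap1 (chr15:99651607-99651906, minus strand): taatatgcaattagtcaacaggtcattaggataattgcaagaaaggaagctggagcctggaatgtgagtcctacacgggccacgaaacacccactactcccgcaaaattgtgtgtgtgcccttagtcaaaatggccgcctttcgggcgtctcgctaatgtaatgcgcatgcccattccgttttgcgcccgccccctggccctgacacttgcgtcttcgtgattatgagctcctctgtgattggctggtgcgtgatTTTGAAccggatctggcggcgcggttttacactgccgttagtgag
An E2F match was in 11 of 28 S phase promoters of the table (39.3%) and in 626 of 27025 overall (2.32%), and a CHR match in 18 of 24 mitosis promoters (75%) and 4893 overall (18.1%). Mcm6, which encodes another helicase subunit, has E2F matches at 110, 106 and 47 bases before the start, of which the first pair overlap, and held 259, 357 and 301 CPM at D49, against 692, 661 and 663 CPM at D12 (-1.14 ± 0.16 SE, adjusted p = 0.000126). No match says only that these letters are not in this window.

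Glycolysis genes fell in 8 of 19, 1 rose and 10 were not called (median -0.28), where 23.7% of all genes tested were called. Tpi1, which interconverts triose phosphates, held 119, 139 and 99.1 CPM at D49, against 372, 328 and 355 CPM at D12 (log2 fold change -1.56 ± 0.12 SE, adjusted p = 1.93e-07), and the lactate exporter gene Slc16a3 held 31.9, 32.3 and 27.8 CPM at D49, against 98.7, 113 and 94.8 CPM at D12 (-1.74 ± 0.24 SE, adjusted p = 8.33e-05). Pkm, pyruvate kinase, fell by 0.72 and Ldha, which makes lactate, by 0.99, with Ldha at 1562, 1574 and 1418 CPM at D49, against 3028, 2510 and 3500 CPM at D12 (adjusted p = 0.000156). D5 held 2328, 2346 and 2235 CPM of Ldha, between the other ages. The 8 falls were 5 without D49 replicate 3. With the covariate 6 were lower, 5 of them among the 8, and the rise of Gapdh (490.0, 478 and 458 CPM at D49, against 314, 280.3 and 269 CPM at D12; 0.72) was no longer seen (0.03); Gapdh also lost the call in each of the 6 single-library omissions. The list of ATF4, a stress response factor, and of serine and asparagine synthesis had 3 higher and 4 lower of 20. The share over all genes is again the 23.7% called. The mitochondrial enzyme gene Pck2 was higher at 33.6, 29.3 and 29.2 CPM at D49, against 10.1, 6.46 and 7.61 CPM at D12 (1.91 ± 0.36 SE, adjusted p = 0.00125). The asparagine synthetase gene Asns was lower at 3.73, 1.42 and 0.173 CPM at D49, against 6.52, 10.8 and 14.8 CPM at D12 (-2.63). The 4 falls were 1 without D12 replicate 3 or D49 replicate 1, 2 in each other omission and 0 with the covariate. Of 24 genes of Myc and ribosome assembly 2 rose and 4 fell, a called share near the 23.7% over all genes tested. Myc itself fell by 0.54 (191, 226 and 209 CPM at D49, against 298, 258 and 351 CPM at D12; adjusted p = 0.0236). The 4 falls were 2 without D12 replicate 2 or D49 replicate 2 and 1 in each other omission. With the covariate 0 passed by the edgeR test, with 5 at an unadjusted p under 0.05.

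Of 11 fetal and neonatal lymphoid genes tested, 3 rose and 4 fell, where 23.7% of all genes tested were called. The rises were 0 without D12 replicate 2 or D49 replicate 2 and 1 without D12 replicate 3 or D49 replicate 1. The falls were 2 without D12 replicate 1, D12 replicate 2, D49 replicate 2 or D49 replicate 3. At 20 CPM or more 0 of 4 rose and 3 fell, and with the covariate 0 of the 11 rose and 2 fell. Igf2bp3, an RNA-binding protein of fetal cells, held 38, 24.3 and 38 CPM at D49, against 97, 113 and 106 CPM at D12 (log2 fold change -1.65 ± 0.17 SE, adjusted p = 2.79e-06; -1.73 with the covariate), and 143, 137 and 136 CPM at D5, above each D12 library. Cd163l1, a scavenger receptor gene of gamma delta T cells, fell as well (1.63, 4.96 and 2.25 CPM at D49, against 18.1, 12.7 and 13.8 CPM at D12; -2.35 ± 0.47 SE, adjusted p = 0.00245). Lin28b, an RNA-binding factor of fetal lymphocytes, was not called (-2.69, adjusted p = 0.0973). Dntt, terminal transferase, which adds bases at receptor joints, rose by 1.58 (18, 27.6 and 26.1 CPM at D49, against 10.1, 4.58 and 9.0 CPM at D12; adjusted p = 0.0209) and lost the call with the covariate and without D12 replicate 2, D49 replicate 2 or D49 replicate 3.

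Ryr2, the ryanodine receptor gene for calcium release, had the largest fall on the log2 scale among tested genes of 20 CPM or more. It held 0.233, 3.3 and 3.63 CPM at D49, against 82.6, 109 and 121 CPM at D12 (log2 fold change -5.37 ± 0.62 SE, adjusted p = 1.43e-05), with 109, 147 and 103 CPM at D5, so D49 was the age that stood apart, and the fall passed with the covariate (-4.22, adjusted p = 0.000150). Ryr2 lies at chr13:11553102-12106945 (mm10). Ryr3 moved with it but not in the same way: 2.56, 0 and 0.865 CPM at D49, against 10.5, 39.6 and 14.8 CPM at D12, and 0.602, 0.75 and 0.996 CPM at D5. Of 16 genes of ryanodine and calcium channels tested, 2 fell (Ryr2 and Ryr3) and 2 rose, a called share near the 23.7% over all genes tested. With the covariate Ryr3 lost its call (-1.83, against -4.22 without it; adjusted p = 0.189), which left 1 fall. The rises were in Itpr2 and Itpr3, genes of inositol trisphosphate receptors (log2 fold changes of 0.83 and 0.64). Neither passed with the covariate, and Itpr3 lost its call in each of the 6 omissions; the count of 2 was 1 without D12 replicate 1, D12 replicate 3, D49 replicate 2 or D49 replicate 3. Sarcomere gene Ttn also fell to 7.93, 4.25 and 10.6 CPM at D49, against 47.8, 106 and 70.8 CPM at D12, but stood at 1.6, 2.81 and 1.5 CPM at D5. Muscle markers, which include Ttn, summed to 19.9 to 28.7 CPM at D49 and 73.3 to 162 CPM at D12; Acta1, Ckm, Myh1, Myh2 and Myh4 were each between 0 and 3.5 CPM in the 6 libraries. Ttn lost its call with the covariate (adjusted p = 0.0515). The part of muscle cells in these values was not tested.

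Interferon response genes rose in 8 of 38, fell in 1 and were not called in 29 (median 0.06). The called share equals the 23.7% over all genes tested, and at 20 CPM or more 5 of 34 rose, near the 15.6% of all genes, so the counts show nothing particular about the list. Irgm1, a GTPase of cell-autonomous defence, held 147, 214 and 188 CPM at D49, against 25.5, 53.3 and 24.2 CPM at D12 (log2 fold change 2.43 ± 0.38 SE, adjusted p = 0.000269), but D5 held 199, 189.6 and 208 CPM, so D12 was the low age. The factor gene Irf1 rose by 0.87 (212, 230.1 and 214 CPM at D49, against 114, 134 and 111 CPM at D12, adjusted p = 0.00564). D5 held 196, 217.5 and 206 CPM of Irf1, near D49, and its adjusted p was 0.202 with the covariate. Common interferon markers Isg15 and Ifit1 were not called, with log2 fold changes of 0.06 and -0.33. The count of 8 was 2 with the covariate, 4 without D49 replicate 2, and 5 without D12 replicate 2, D12 replicate 3 or D49 replicate 3. The fall, in the GTPase gene Gbp7, was lost with the covariate and without D49 replicate 1, and the count of falls was 2 without D49 replicate 2.

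A set of genes with large rises at D49 had low D12 levels against both other ages. Arglu1, a splicing-related protein, held 90.7, 127 and 113 CPM at D49, against 16.7, 15.3 and 12.9 CPM at D12 (log2 fold change 2.87 ± 0.40 SE, adjusted p = 8.56e-05), and 119, 131 and 111 CPM at D5. Pdcd4, a translation inhibitor, held 108, 153 and 126 CPM at D49, against 20.8, 15.1 and 21.9 CPM at D12 and 135, 132 and 148 CPM at D5. Rps12, a ribosomal protein, held 509, 515 and 501 CPM at D49, against 123, 109.9 and 95.5 CPM at D12 and 546, 522 and 580.3 CPM at D5. These genes were also low in D49 P2 replicates 2 and 3, the other libraries with a high share of low genes: Arglu1 stood at 127, 49.8 and 19 CPM in D49 P2 replicates 1, 2 and 3, Pdcd4 at 232, 46.6 and 38.8 and Rps12 at 367, 108 and 48.2. Snhg6, a noncoding RNA, did likewise (a log2 fold change of 2.45 between D49 and D12 P1). The sort gene Cd4 shared the pattern, with 969, 1034 and 886 CPM at D49, against 356, 366 and 361 CPM at D12, 735, 704 and 691 CPM at D5 and 882, 426 and 266 CPM in D49 P2 (log2 fold change 1.42 ± 0.24 SE, adjusted p = 0.000596). Zbtb7b, the lineage factor of CD4 T cells, held 88.4, 101 and 88.4 CPM at D49, against 33.7, 31.8 and 43.4 CPM at D12 and 90.4, 67.5 and 28.6 CPM in D49 P2. The share of low genes moves with these values, and its part in them was not tested. With the covariate, Arglu1 (1.86), Pdcd4 (1.57), Rps12 (1.08) and Cd4 (0.74) kept an adjusted p under 0.05. Of 79 ribosomal protein genes tested, 43 were higher at D49 and 4 lower, with a median of 0.43. The shares over all genes tested were 10.2% higher and 13.5% lower.

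**Figure D4:**
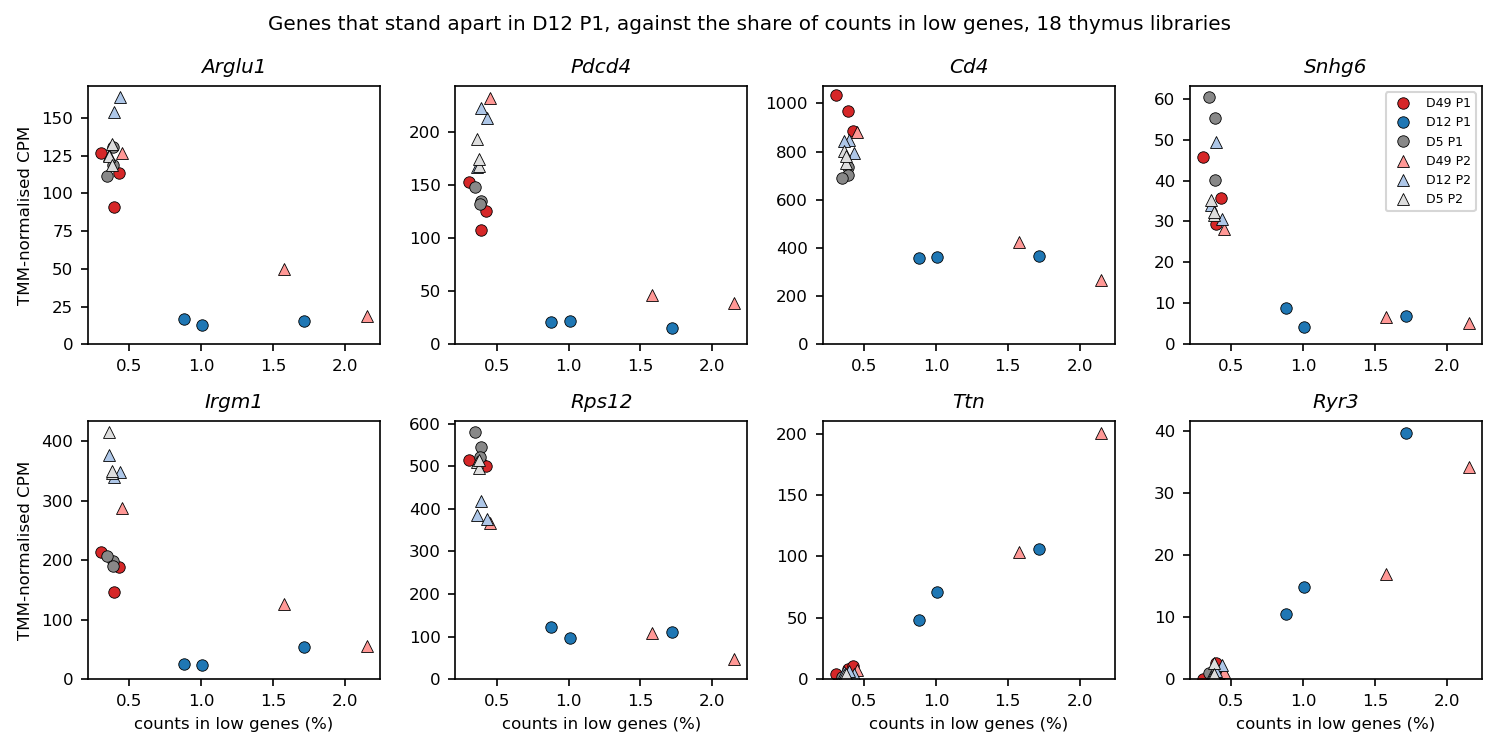
CPM of 8 genes in each of 18 thymus libraries (P1 circles, P2 triangles) against the share of counts in genes too low to test. The D12 P1 libraries and D49 P2 replicates 2 and 3 lie to the right, where Arglu1, Pdcd4, Cd4, Snhg6, Irgm1 and Rps12 are low and Ttn and Ryr3 high.

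Other genes of 20 CPM or more with large changes belonged to no list. Vmn2r97, of the vomeronasal receptor family, held 136, 124 and 142 CPM at D49, against 11.6, 9.96 and 15.7 CPM at D12 and 3.61, 5.06 and 4.32 CPM at D5 (3.43 ± 0.22 SE, adjusted p = 1.23e-08). The sum over olfactory, vomeronasal and trace amine receptor genes went the other way, at 245 to 356 CPM at D49 and 1089 to 2693 CPM at D12. Tmie, a protein of the mechanosensory channel of hair cells, held 46.4, 38.7 and 37.5 CPM at D49, against 2.35, 6.19 and 3.0 CPM at D12 (3.45 ± 0.44 SE, adjusted p = 3.61e-05). Each D49 library was above each D5 library for both genes, and above each D12 library, as the rule that named them required. H1f0, the linker histone of resting cells, held 16.6, 16.5 and 15.4 CPM at D49, against 98.5, 95.3 and 93.9 CPM at D12 (-2.57 ± 0.32 SE, adjusted p = 3.22e-05), and Myo6, an unconventional myosin, held 9.1, 10.6 and 7.78 CPM at D49, against 61.6, 28 and 41.1 CPM at D12 (-2.26 ± 0.42 SE, adjusted p = 0.00124). Mcm10, a replication initiation factor, held 8.86, 8.49 and 9.86 CPM at D49, against 44.7, 33.9 and 42.2 CPM at D12 (-2.15) and lost its call with the covariate (adjusted p = 0.0771). The adhesion gene Amigo2 held 8.63, 8.73 and 14.9 CPM at D49, against 78.2, 59.2 and 17.1 CPM at D12 (-2.25), with 5.62 to 8.47 CPM at D5. For Amigo2, D12 replicate 3 lay close to the D49 libraries.

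Transcript length moved with the fold change among genes of 20 CPM or more. The median was 0.25 for 420 genes with a transcript of 8 kb or more (130 higher and 15 lower) and -0.13 for 305 genes under 1 kb (45 higher and 58 lower), with the intermediate lengths between -0.14 and 0.08. Cell types outside the sort also differed in marker sums. Fibroblast markers summed to 2.36 to 3.29 CPM at D49 and 19.6 to 29.6 CPM at D12. Neutrophil markers summed to 0 to 1.18 CPM at D49 and 5.43 to 6.69 CPM at D12, but 1 of the 10 was tested and was not called. B cell, dendritic cell, innate lymphoid, thymic epithelial and hepatocyte sums were also lower at D49 without overlap. The NK, innate-like T and Foxp3+ Treg sums, given above, were higher. The part of these cell types in the low genes was not tested. Macrophage markers overlapped between the ages, at 7.0 to 37.1 CPM at D49 and 7.24 to 15.4 CPM at D12; 2 of 8 tested rose, C1qa (0.466, 5.43 and 0.173 CPM at D49, against 0, 0 and 0 CPM at D12) and C1qc (0.233, 6.84 and 0.519 CPM at D49, against 0, 0 and 0 CPM at D12), and D49 replicate 2 held most of both. Markers of double positive thymocytes overlapped between the ages, at 272 to 302 CPM at D49 and 217 to 287 CPM at D12.

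Whether the age difference differed between P1 and P2 was tested by its interaction with the population, D49 minus D12 in P1 less the same in P2. It passed in 4156 of 14696 genes (28.3%), and in 1122 of 17825 (6.29%) when D49 P2 replicates 2 and 3, the libraries with many low genes, were left out. That omission leaves 1 D49 P2 library, whose spread is assumed to be that of the other groups. Of the class I genes 13 of 19 differed, 12 with the larger value in P1, and 8 of 20 without those 2 libraries, all larger in P1. H2-K1 rose by 1.44 in P1 and stood at -0.05 in P2 (interaction adjusted p = 0.000450). Its P2 value averages D49 P2 replicates of 5742, 4355 and 2595 CPM, against 4206 to 4542 CPM in D12 P2, and without replicates 2 and 3 the P1 minus P2 difference was 1.05. H2-Q7 had 4.37 in P1 and 1.78 in P2 (adjusted p = 0.000279), a difference of 2.17 without those replicates. Of the mitosis genes 3 of 30 differed, 1 with the higher and 2 with the lower value in P1. Without those 2 libraries 13 differed, all higher in P1, which rests on the values of D49 P2 replicate 1. Racgap1 had a log2 fold change of -1.9 in P1 and -1.97 in P2 (interaction adjusted p = 0.890). Ldha had -0.99 in P1 and -0.01 in P2 (adjusted p = 0.00225), with 999.6, 1407 and 1846 CPM in D49 P2 replicates 1, 2 and 3 and a P1 minus P2 difference of -0.47 without replicates 2 and 3. Igf2bp3 had -1.65 in P1 and -1.69 in P2 (adjusted p = 0.918). With the covariate 1 gene passed by the edgeR test, with 1881 at an unadjusted p under 0.05. The comparisons in P1 and P2 share no libraries. Without D49 P2 replicate 1, the only D49 P2 library with few low genes, 7010 genes passed.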

How the data were processed

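Gene counts of thymus libraries were the authors' deposited table of raw counts, with reads aligned to mm10 by STAR 2.7.3a and counted by featureCounts, per the submitters' processing notes. For strand setting, annotation release and multi-mapped reads, no source used here states the choice. The 6 compared libraries and 12 further thymus libraries (18 in all, 6 groups of 3) entered 1 fit in edgeR 4.0.16 (R 4.3.3): filterByExpr (minimum count 10, minimum total 15), TMM factors, quasi-likelihood F test, and Benjamini-Hochberg adjustment over 14696 of 55011 genes, called under 0.05. Each SE is the fold change divided by the root of F. A gene weighs at 20 CPM or more by its mean over the 6 libraries. Alternatives used DESeq2 1.42.0, limma 3.58.1 (voom), other size factors and filters, a covariate, a replicate block and omission of libraries. The test was tested on simulated data with known changes. Members, lists and named genes were chosen with earlier results of these data known; the rule named the 12 largest non-overlapping changes of 20 CPM or more in each direction, up to 4 called genes a list by adjusted p, 8 fixed genes and the 6 largest interactions in each direction, and other members named were chosen after their values were seen. Replicate numbers did not pair the libraries: correlations of same-numbered deviations were 0.0349, 0.00982 and -0.0197. Libraries of a group differed by more than counting noise (a chi-square of 5.54 to 7.56 per degree of freedom). Each library entered the fit as a sample. This spread can be technical and does not show that the libraries came from different animals. Positions come from GENCODE M21 and promoters from RefSeq GRCm38.p6. A few genes are not reported here.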

Additional observations from a re-analysis of the deposited data

Results flagged for a closer look

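The 10 genes below were singled out because the D49 minus D12 difference differed between P1 and P2 by a test of that difference (the edgeR interaction). Values are log2, P1 minus P2. The difference was higher in P1 for Arglu1 (4.06), Snhg6 (3.95), Dpysl2 (3.67), Pdcd4 (3.65) and Irgm1 (3.62). It was lower in P1 for Ttn (-7.53), Ryr2 (-3.59), Uri1 (-3.18), Zfp622 (-3.07) and Amigo2 (-3.00). With the share of low genes as a covariate each of the 10 lost its call (adjusted p of 0.101 for Arglu1 to 0.879 for Ryr2). Without D49 P2 replicates 2 and 3, 9 of the 10 passed in the same direction and Ryr2 did not, but that leaves 1 D49 P2 library, assumed to vary like the other groups. The 5 genes of the first set were low in the D12 P1 libraries and in D49 P2 replicates 2 and 3, which hold a high share of low genes. In the second set Ttn stood at 7.43, 103 and 200.5 CPM and Uri1 at 34.8, 83.8 and 92.1 CPM in D49 P2 replicates 1, 2 and 3, and in P1 Ttn held 4.25 to 10.6 CPM at D49 and 47.8 to 106 CPM at D12, and Uri1 26.9 to 29.6 CPM at D49 and 44.3 to 133 CPM at D12.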

How the results depend on the processing

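Of 3487 genes called in P1, the count was 2178 when only genes of 20 CPM or more were fitted (fewer genes tested), 777 with the share of low genes as a covariate, and 1944 to 2402 when 1 library was left out. Of 2022 genes of 20 CPM or more it was 581 with the covariate and 1303 to 1486 with 1 library left out. Of 4156 genes in the interaction it was 8351 with no filter on low counts, 2169 with only genes of 20 CPM or more, 1 with the covariate, 3880 to 7010 with 1 library left out and 1122 without D49 P2 replicates 2 and 3, which leaves 1 library in that group; the cause was not tested. The replicate block, whose numbers did not pair the libraries, gave 3337, 2417 and 2618 genes. Other size factors, DESeq2, voom and the compared libraries alone kept each of the 3 counts within 1.5 times. The split of calls at 20 CPM or more moved with the scaling: 56.4% were higher at D49, against 49.0% with relative log expression factors, 48.0% with DESeq2 and 68.2% with no filter. The Ryr2 interaction was 0.33 without D49 P2 replicates 2 and 3 (adjusted p = 0.982), against -3.59 with them. Depth limits genes of a few CPM, which rest on few reads a library.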
